A study of Mus musculus with 7 samples.

Results

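Neutrophils among the stromal vascular cells of mouse inguinal fat, the cells left once adipocytes are removed, were selected by a gate on raw counts per cell. The counts are unique molecular identifiers (UMIs), each standing for 1 captured transcript. A cell entered the gate with at least 10 UMIs of S100a8, at least 10 UMIs of S100a9 and at least 2 UMIs over Csf3r, Cxcr2 and Retnlg together, and with no UMI of Cd3e or Pdgfra. Barcodes below 500 UMIs or 300 genes, or above 15% mitochondrial UMIs, were set aside beforehand, and the rest are called kept cells. The gate held 175 of 39566 kept cells, 37 of them from young and 138 from old libraries.

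The study profiled female C57BL/6N mice by droplet-based single-cell RNA sequencing (10x Genomics, 3' chemistry v3) and set 4 young libraries (11-12 weeks old) against 3 old libraries (18 months old). No genetic change or treatment is named for either age. The tissue was digested with collagenase, red blood cells were lysed and the suspension was filtered; no perfusion step is named, and neutrophils of the tissue and of blood left in its vessels cannot be told apart. Whether each library comes from a single mouse is not stated in the labels, so p-values below measure the spread between libraries.

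Neutrophils are short-lived granulocytes made in the bone marrow and released into blood. While they mature they make their granule proteins in sequence: primary granule enzymes such as Mpo and Elane in promyelocytes, secondary granule proteins such as Ltf, Camp and Ngp in myelocytes, and tertiary granule proteins such as Mmp9 last. Mature cells carry Cxcr2, the receptor for the chemokines Cxcl1 and Cxcl2, and make Il1b and Cxcl2 themselves when activated. They hold little RNA, which makes them easy to lose in droplet data.

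The libraries held 52336665 to 99516882 UMIs in all, and the median kept cell was deeper in the young libraries (9327 to 14100 UMIs) than in the old ones (6130 to 8028 UMIs). A pair of libraries stood apart in ways that touch the results. In young replicate 1 the activation gene Cxcl2 was far lower in other myeloid cells: gated macrophages held 151 CPM (UMIs per 1e+06 UMIs) there against 2827 to 5175 CPM in the other 6 libraries. In old replicate 1 transcripts of neutrophils were spread over other cells: 15.0% of gated progenitors held an S100a8 UMI, against 0.145% to 3.09% in the other libraries. The 7 libraries shared 2 to 19 cell barcodes per pair, and no neutrophil barcode was shared.

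The gate genes fixed the members, so their levels are a description. S100a8 and S100a9, which together form the calcium-binding protein calprotectin, made up 9.14%, 6.66%, 6.29% and 14.8% of neutrophil UMIs in young replicates 1 to 4 and 21.99%, 5.41% and 21.1% in old replicates 1 to 3. The share in old replicate 2 lay below every young library and old replicates 1 and 3 lay above all of them. S100a8 was at 39897, 30896, 28303 and 65525 CPM in the young libraries and at 103877, 23754 and 84733 CPM in the old ones. Retnlg, which encodes a resistin-like secreted protein, was likewise lowest in old replicate 2 among the old libraries (15868, 4126 and 18453 CPM). Csf3r, the receptor for the growth factor G-CSF, lay between 1210 and 3292 CPM in young and between 755 and 1567 CPM in old libraries, and Cxcr2 between 524 and 1576 CPM and between 490 and 797 CPM.

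Outside old replicate 2, few cells lay near the threshold of 10 UMIs. Cells with 10 to 19 S100a8 UMIs numbered 2 in young replicate 2, 1 in old replicate 1 and 7 in old replicate 2, and the other libraries had 0. With the thresholds of S100a8 and S100a9 both lowered to 5, 1 further cell of old replicate 1 and 1 of old replicate 2 entered. With both raised to 20, old replicate 2 held 24 of its 32 cells, young replicate 2 held 12 of 14 and old replicate 1 held 65 of 66. The marker list of neutrophils, which holds the gate genes too, was detected whole in every library (15 of 15) except young replicate 3, with its 2 cells, where 14 were. In sum these markers were at 88298 to 260518 CPM, while the natural killer markers were at 0 in 6 libraries and the T cell markers were at most 8.85 CPM.

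Genes that the gate did not name set these cells apart from the other gated classes as well. Those classes were monocytes, macrophages, T cells, B cells, progenitors and endothelial cells. Other cell types, such as mast and epithelial cells, were not gated and not compared. Among genes at or over a mean of 500 CPM, the 20 with the highest ratio to the next class included all 5 gate genes. Stfa2l1, a cysteine protease inhibitor of the stefin A family, was at a mean of 810 CPM in neutrophils and 0.201 CPM in the next class, T cells; its close copies leave the counting uncertain. Asprv1, an aspartic protease, was at 607 CPM against 1.24 CPM in monocytes. Hdc, the enzyme that makes histamine, was at 1946 CPM against 12.7 CPM in endothelial cells, and G0s2, an inhibitor of lipolysis, at 3910 CPM against 45.7 CPM in progenitors. Irg1 (also Acod1), which makes itaconate, was at 1341 CPM against 16.5 CPM in monocytes. Il1r2, the decoy receptor for interleukin-1, was at 1756 CPM against 74.4 CPM in progenitors. Slpi, Lcn2, Wfdc21, Ifitm1, Clec4d and H2-Q10 stood between 20.8 and 65.3 times over the next class. Camp and Ngp, also among the 20, owed their mean to a single library.

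The first comparison took up the share of neutrophils in old fat. A higher share in the old libraries was already known from these data when the members and tests were chosen. The p-values of share and number therefore describe a difference already seen. Relative to all kept cells, neutrophils were more frequent in old libraries. The young libraries held 12, 14, 2 and 9 neutrophils, which are 0.256%, 0.237%, 0.0697% and 0.153% of kept cells. The old libraries held 66, 32 and 40, or 0.995%, 0.429% and 0.652%. Every old library lay above every young one. The mean share was 0.179% ± 0.0853 (SD, n = 4) in young and 0.692% ± 0.285 (SD, n = 3) in old libraries, a ratio of 3.87. The 2-sided exact permutation test on the log odds gave p = 0.0286 over the 35 splits, the smallest p this design allows. With counts this low the 95% exact (Clopper-Pearson) intervals are wide, from 0.00844% to 0.252% in young replicate 3 and from 0.771% to 1.26% in old replicate 1; they cover counting error only.

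**Figure D1:**
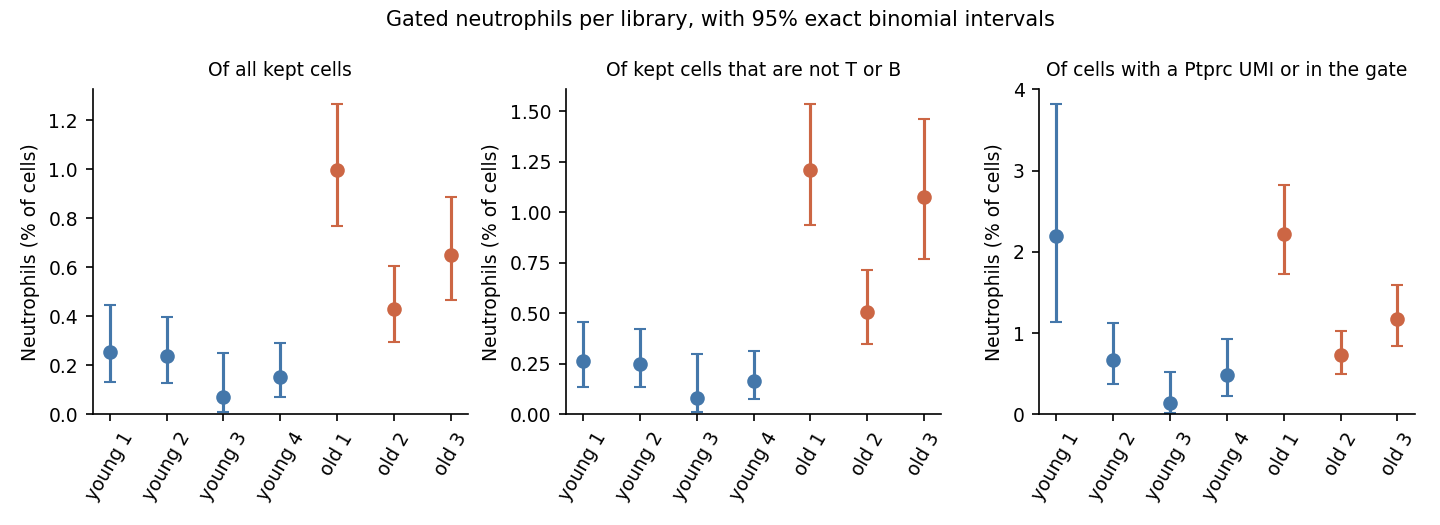
Share of gated neutrophils per library (y axis, percent of cells) over 3 denominators, with points for libraries and bars for 95% exact binomial intervals; young is blue and old is orange. Of all kept cells the old libraries (0.429% to 0.995%) lie above the young ones (0.0697% to 0.256%), whereas of cells with a Ptprc UMI or inside the gate young replicate 1 (2.20%) reaches old replicate 1 (2.22%).

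In a test of the cell numbers of all gated classes together (edgeR quasi-likelihood, Benjamini-Hochberg adjusted), neutrophils rose with age by 1.90 on the log2 scale (SE 0.61, adjusted p = 0.0336). T cells (1.43, adjusted p = 0.0642), monocytes (0.87, adjusted p = 0.284) and macrophages (0.25, adjusted p = 0.767) did not pass. B cells passed (1.85, adjusted p = 0.0443), but their value was 0.40 when old replicate 3 was omitted (adjusted p = 0.824), and the call was also lost on omitting young replicates 1 (0.147), 2 (0.162) or 4 (0.120). The call for neutrophils rested on several libraries: leaving out young replicate 2 gave an adjusted p of 0.0807, young replicate 4 gave 0.120, old replicate 1 gave 0.115 and old replicate 3 gave 0.0532. Counts thinned to equal depth per library gave 1.94 on the log2 scale (adjusted p = 0.0359).

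The denominator changed what the share showed. Of kept cells other than T and B cells, neutrophils were at 0.191% ± 0.0839 (SD, n = 4) in young and 0.930% ± 0.372 (SD, n = 3) in old libraries, again without overlap (2-sided exact permutation p = 0.0286). Of cells in the gate or with a UMI of Ptprc, the pan-leukocyte gene, they were at 2.20%, 0.674%, 0.145% and 0.487% in young and at 2.22%, 0.732% and 1.17% in old libraries. These overlap, with 2-sided exact permutation p = 0.343. Of neutrophils, monocytes and macrophages pooled, neutrophils were 4.88%, 1.38%, 0.434% and 1.07% in young and 7.29%, 1.88% and 4.87% in old libraries (2-sided exact permutation p = 0.171). Young replicate 1 is the young library that overlaps the old ones in both, and it held only 545 cells in the gate or with a Ptprc UMI, against 1379 to 4373 elsewhere.

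The neutrophils themselves were shallow cells. Their median UMI count was 2027, 3487, 3357 and 3267 in the young and 6098, 3279 and 3894 in the old libraries. The difference between ages, 0.53 on the log2 scale of the medians, was within the spread (2-sided exact permutation p = 0.171). Cells of at least 10000 UMIs numbered 2 in young replicate 2, 14 in old replicate 1 and 1 in old replicate 2. Doublet scoring marked 1 neutrophil each in young replicates 1 and 2, 6 in old replicate 1 and 3 in old replicate 3. Both deep cells of young replicate 2 held 658 UMIs of Fabp4, a gene of endothelial cells and adipocytes. Leaving out the cells of at least 10000 UMIs gave a rise in number of 1.81 on the log2 scale (adjusted p = 0.0423).

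Granule genes divided the neutrophils by library. Secondary granule transcripts were concentrated in old replicate 1: Ngp, neutrophilic granule protein, was at 0, 112, 0 and 0 CPM in the young libraries and at 10186, 8.85 and 465 CPM in the old ones. Camp, the cathelicidin antimicrobial peptide, was at 175 CPM in young replicate 2, 9551 CPM in old replicate 1 and 0 in the other 5 libraries. Ltf, the iron-binding protein lactoferrin, was at 99.8 CPM in young replicate 2 and at 2585, 8.85 and 18.6 CPM in the old libraries. At least 1 UMI of Ngp, Camp or Ltf was found in 39 of 66 neutrophils of old replicate 1, 2 of 32 of old replicate 2 and 13 of 40 of old replicate 3. In the young libraries it was found in 0 of 12, 1 of 14, 0 of 2 and 0 of 9.

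The promoters of 2 of these granule genes are shown for their sequence. Beside them are those of 2 cytokine genes that were low in the Camp-rich cells of old replicate 1, described below. They are RefSeq windows of build GRCm38.p6, starting 250 bases before the RefSeq gene start and ending before the GENCODE gene begins, each 5′ to 3′ on the gene's strand. Ngp (chr9:110419558-110419746, plus strand), Ltf (chr9:111019042-111019270, plus strand), Il1b (chr2:129371140-129371389, minus strand) and Cxcl2 (chr5:90903649-90903870, plus strand) are in lower case. Capitals mark matches, on either strand, to the C/EBP motif TTNNGCAA or to the NF-kB motif of 3 G, any 2 bases, 3 T and 2 C; no match overlaps another.
Ngp: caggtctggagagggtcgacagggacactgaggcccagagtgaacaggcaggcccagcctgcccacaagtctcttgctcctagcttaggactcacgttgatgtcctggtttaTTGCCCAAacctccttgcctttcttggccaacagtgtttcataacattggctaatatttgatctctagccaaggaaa
Ltf: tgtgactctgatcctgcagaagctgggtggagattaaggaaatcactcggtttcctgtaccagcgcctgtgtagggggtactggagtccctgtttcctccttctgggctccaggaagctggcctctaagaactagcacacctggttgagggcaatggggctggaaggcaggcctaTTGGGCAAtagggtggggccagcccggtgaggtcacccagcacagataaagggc
Il1b: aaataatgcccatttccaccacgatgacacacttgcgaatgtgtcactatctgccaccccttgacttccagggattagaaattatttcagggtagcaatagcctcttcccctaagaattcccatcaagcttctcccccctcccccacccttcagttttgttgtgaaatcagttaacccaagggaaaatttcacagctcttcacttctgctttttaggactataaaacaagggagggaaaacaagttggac
Cxcl2: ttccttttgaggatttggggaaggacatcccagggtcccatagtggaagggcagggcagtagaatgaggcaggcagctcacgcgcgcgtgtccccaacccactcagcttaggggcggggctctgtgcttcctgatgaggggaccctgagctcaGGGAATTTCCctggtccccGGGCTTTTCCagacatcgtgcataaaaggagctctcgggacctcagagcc
Ngp and Ltf each hold 1 match to the C/EBP motif, a motif found in 7.76% and 9.02% of all RefSeq windows of the same lengths. Cxcl2 holds 2 matches to the NF-kB motif, which 1.17% of windows of its length hold, and the Il1b window holds neither motif. The 3 secondary granule genes lie on 1 chromosome: in GENCODE M21 Camp spans chr9:109847379-109849617, Ngp chr9:110419747-110423012 and Ltf chr9:111019271-111042767.

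Single cells of old replicate 1 formed a range from cells rich in granule transcripts to cells rich in cytokine transcripts. The groups that follow were set after the values were seen and are a description. At the granule end, 8 cells held at least 100 Camp UMIs; 4 of them were scored as doublets, against 2 of the other 58 neutrophils of the library. They had 11440 to 25172 UMIs in all, 271 to 989 UMIs of Ngp and 94 to 228 UMIs of Ltf. Per 10000 UMIs these 8 cells held 58.2 of Chil3, a chitinase-like lectin, 199 of Lcn2, an iron-scavenging lipocalin, and 22.2 of Cybb, the catalytic subunit of the NADPH oxidase. They held only 0.336 of Il1b and 1.51 of Cxcl2 per 10000 UMIs, and Retnlg, 1 of the gate genes, was at 27.3. Csf3r and Cxcr2 were at 0.923 and 1.43.

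A further 15 cells of old replicate 1 held at least 10 Ngp UMIs with fewer than 100 of Camp. They held 60.5 of Ngp and 10.4 of Camp per 10000 UMIs, 323 of Retnlg and 23.3 of Mmp8, the neutrophil collagenase. Il1b was at 28.1 and Cxcl2 at 56.5. The 27 cells of the same library with none of Ngp, Camp and Ltf held 124 of Il1b and 243 of Cxcl2 per 10000 UMIs, 126 of Retnlg and 4.40 of Mmp8. The order of Ngp and Camp across these 3 groups was fixed by how the groups were set. Il1b and Cxcl2, which did not set them, were lowest in the first group and highest in the last. Mmp8, placed here in the list of tertiary granule and vesicle genes, was highest in the middle group (6.63, 23.3 and 4.40 per 10000 UMIs in turn). So was Mmp9 (10.6, 23.1 and 14.5). The median depth was 13041, 7485 and 4402 UMIs in turn. The other 16 of its 39 cells with a UMI of Ngp, Camp or Ltf held fewer than 10 Ngp UMIs.

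Cells with none of Ngp, Camp and Ltf could be set side by side across all libraries. Per 10000 UMIs they held 72.3 of Il1b in the 36 young cells and 124, 99.9 and 94.96 in the 27, 30 and 27 cells of old replicates 1 to 3. Cxcl2 was at 49.5 in the young cells and at 243, 230 and 90.5 in the old ones. By young library Il1b was at 84.0, 63.5, 107 and 74.9 and Cxcl2 at 28.4, 64.0, 19.4 and 39.9, so that Il1b in young replicate 3 lay above old replicates 2 and 3, while Cxcl2 in each young library lay below every old one. Without the 2 Fabp4-rich cells of young replicate 2 the pooled young cells held 101 of Il1b and 67.9 of Cxcl2. Young replicate 2 itself, without them, lay above every old library in Il1b and above old replicate 3 in Cxcl2. The order of the libraries in Cxcl2 thus rests on those 2 cells.

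**Figure D2:**
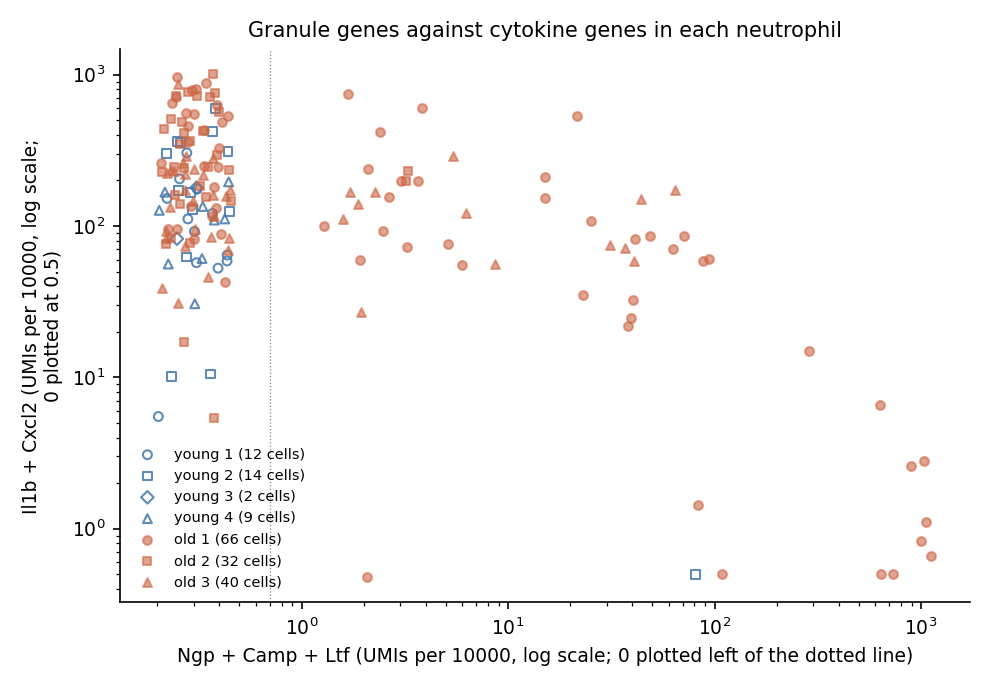
Each point is 1 of the 175 neutrophils; the x axis gives Ngp, Camp and Ltf together and the y axis Il1b and Cxcl2 together, both as UMIs per 10000 on log scales, with cells at 0 drawn left of the dotted line or at 0.5. The 8 cells far to the right, all of old replicate 1, lie toward the bottom of the cytokine axis, and the young cells other than 1 cell of young replicate 2 lie left of the line.

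A single cell of old replicate 1 was rich in primary granule genes. It held 62839 UMIs, the most of any member, with 342 UMIs of Mpo, 305 of Prtn3 and 123 of Elane, all primary granule enzymes, and 35 of the cell division gene Top2a. It entered the gate with 12 UMIs of S100a8, 39 of S100a9, 2 of Csf3r, 1 of Cxcr2 and 0 of Retnlg. In this library S100a8 UMIs were spread over other cells, and whether the gate UMIs of this cell were its own was not tested. No other cell in the gate held an Mpo or Elane UMI. Cells with some Ngp also occurred in old replicate 3, where 4 cells held 13 to 16 Ngp UMIs and no neutrophil held a Camp UMI. In the young libraries 1 cell of young replicate 2 showed these genes, with 9 UMIs of Ngp, 14 of Camp and 8 of Ltf.

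The same transcripts were found at low levels in other cells of old replicate 1. Camp was at 1.23 CPM and Ngp at 1.79 CPM in its progenitors, where 1.61% and 2.35% of cells held a UMI, against 33.3% and 54.5% of its neutrophils. Leaving out every neutrophil with a UMI of Ngp, Camp or Ltf lowered the rise in neutrophil number to 1.21 on the log2 scale (edgeR adjusted p = 0.113) and moved the 2-sided exact permutation p of the share to 0.0571. Hence neither call held for the remaining cells.

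The next comparison asked which genes differed between old and young neutrophils. UMIs were summed per library and compared with edgeR quasi-likelihood over 3549 genes, without the gate genes and without young replicate 3, whose 2 cells gave 6713 UMIs. No gene passed (0.0% at an adjusted p under 0.05), while 231 genes (6.51%) had an unadjusted p under 0.05, 128 of them higher (3.61%) and 103 lower (2.9%) in old, and DESeq2 called 10 of 1824 genes (0.548%). Folds below are log2, old minus young, with TMM scaling, under which the median of all genes was 0.12; it was 0.01 with RLE size factors and -0.27 unscaled. The share of genes with a higher fitted level in old was 56.1%, 50.4% and 35.2% in turn. In the unscaled CPM of all 7 libraries the old libraries lay above all the young ones for 1.49% of these genes and below all of them for 3.18%.

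The 5 genes with the lowest p among those higher in old were Mrgpra2b, Ccl9, Ngp, Cd74 and Ifitm6. Mrgpra2b, a G protein-coupled receptor gene with close copies, had 0, 6, 0 and 0 UMIs in the young and 133, 43 and 108 UMIs in the old libraries. That is 0 to 74.8 CPM against 249 to 670 CPM, with no overlap, a log2 difference of 3.95 (SE 0.87) and an edgeR adjusted p of 0.222; DESeq2 called it (adjusted p = 0.0223). With every cell thinned to 1000 UMIs, Mrgpra2b was seen in at least 21.2% of the neutrophils of each old library and in 0%, 14.3%, 0% and 0% of young ones; without thinning the old shares were at least 53.1%. Its UMIs were spread over cells: in the old libraries the richest cell held 10 of 133, 7 of 43 and 22 of 108. It was at most 0.249 CPM in any other gated class.

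Cd74, the invariant chain of MHC class II, was at 165, 337, 298 and 140 CPM in young and 474, 1186 and 1408 CPM in old neutrophils. The groups did not overlap, and the log2 difference was 2.59 (SE 0.65, edgeR adjusted p = 0.230; DESeq2 adjusted p = 0.0489). This rests on 4 cells: 1 cell held 211 of the 253 Cd74 UMIs of old replicate 1, 1 held 103 of 134 in old replicate 2, and 2 held 201 of 227 in old replicate 3, while the median neutrophil held 0 or 1. Without the 4 cells the old libraries were at 80.9, 310 and 177 CPM, which overlap the young ones, and the log2 difference was 0.00 (edgeR adjusted p = 1.00). H2-Ab1, which encodes an MHC class II chain itself, had 2, 12, 0 and 0 UMIs in young and 93, 19 and 62 UMIs in old neutrophils (edgeR adjusted p = 0.554), with 66 of the 93 in 1 cell of old replicate 1 and 33 and 20 of the 62 in 2 cells of old replicate 3. The dendritic cell genes Xcr1 and Clec9a had no UMI in the gate, and Flt3 and Cd209a had 1 each. B cells held 15204 CPM of Cd74, and the B cell markers inside the gate were at 0 to 162 CPM in young and 5.62 to 347 CPM in old libraries, where 1 cell held 34 of the 56 UMIs of old replicate 3. The part of other cell types in the Cd74 level was not tested. Ccl9, a chemokine gene, had 1 UMI over all young neutrophils, in young replicate 3, and 66, 9 and 9 UMIs in the old libraries. Ifitm6, an interferon-induced membrane protein gene, was at 62.4 to 298 CPM in young and at 1570, 106 and 378 CPM in old libraries, which overlap.

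The 5 genes with the lowest p among those lower in old were Postn, Sparc, Nfib, Igfbp5 and Prss23, which are genes of stromal or endothelial cells. Sparc, a matrix-binding glycoprotein, was at 1653, 2457, 298 and 35.02 CPM in the young and at 63.7, 62.0 and 37.2 CPM in the old libraries. Young replicate 4 thus lay below all old libraries. A single scored doublet held 38 of the 50 Sparc UMIs of young replicate 1, and 2 cells held 112 and 80 of the 197 of young replicate 2. Its log2 difference was -4.32 (SE 0.90, edgeR adjusted p = 0.222). Without young replicate 4, 28 genes were called, all of them lower in old, with Sparc at an adjusted p of 0.00290.

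The adipose progenitor markers inside the gate summed to 6413, 1534, 1639 and 630 CPM in the young and 433, 744 and 285 CPM in the old libraries, with 4 to 6 of the 7 markers detected and Pdgfra at 0 by the gate. In young replicate 1 a single scored doublet held 170 of the 194 UMIs of these markers, and without it the sum was 1034 CPM. The endothelial markers were at 2445 CPM in young replicate 2, with all 6 detected, and at 24.8 to 186 CPM elsewhere; 2 cells held 111 and 83 of its 196 UMIs. Of the 108 tested genes that were over 10 times higher in another gated class, 37 had an unadjusted p under 0.05 in the direction of lower in old and 9 in the other direction. These markers moved with the lower genes, and their part in the result was not tested.

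**Figure D3:**
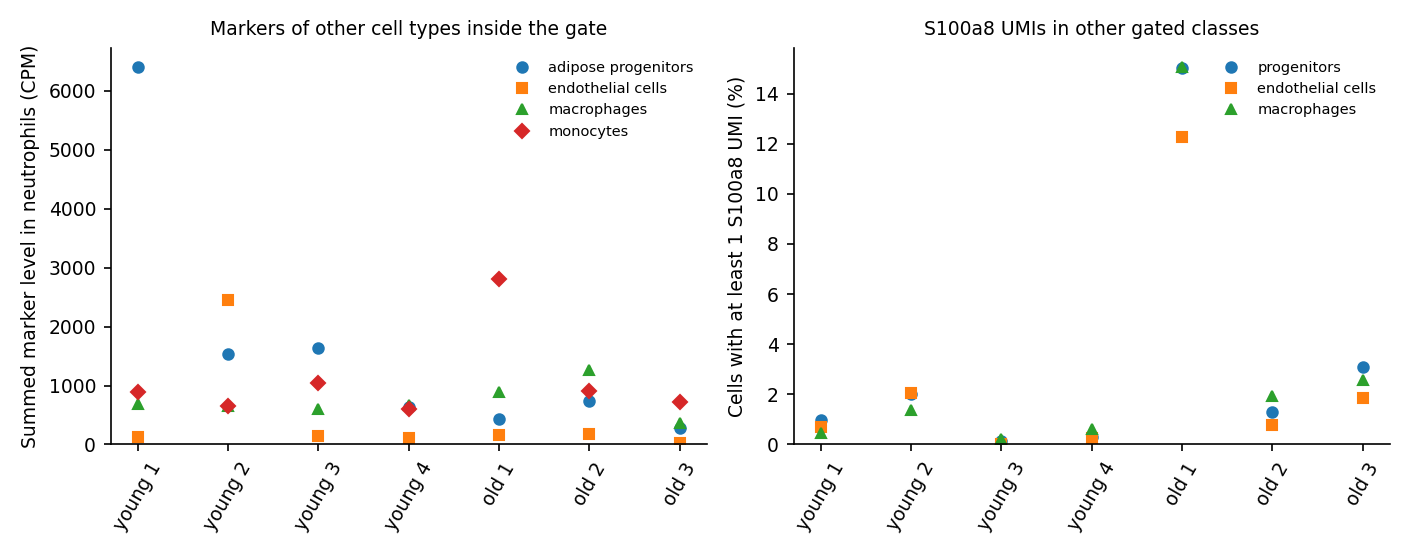
Left, the summed CPM of marker genes of 4 other cell types inside the neutrophil gate per library; right, the percent of gated progenitors, endothelial cells and macrophages with at least 1 S100a8 UMI. Adipose progenitor markers reach 6413 CPM in young replicate 1 (1034 CPM without 1 scored doublet), and S100a8 UMIs reach 15.0% of progenitors in old replicate 1.

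By role, the granule lists came first. The counts in this and the following lists stand beside the shares over all genes tested. At an unadjusted p under 0.05 these were 3.61% higher and 2.9% lower in old. Without overlap they were 1.49% above and 3.18% below all young libraries. Of the 6 primary granule genes, 5 had a UMI and none was tested. All 7 tested members of the secondary granule list lay above the median of all genes, by 2.37 on the log2 scale at their median, and none passed edgeR. Lcn2 was at 628, 911, 149 and 665 CPM in young and 7509, 496 and 3274 CPM in old neutrophils; old replicate 2 lay within the young range. Lyz2, lysozyme, showed the same order (1045 CPM in old replicate 2 against 4893 and 4378 CPM). The sum over the list was 1639 to 4343 CPM in young libraries and 38976, 2807 and 10858 CPM in old ones. Among tertiary granule and vesicle genes, Mmp9, a gelatinase, was at 1043 to 1851 CPM in young and 1098 to 1711 CPM in old libraries and Slpi, a protease inhibitor, at 1696 to 4171 CPM and 1581 to 4037 CPM. Both overlap.

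Cytokines and chemokines lay high in old libraries without a call. Of 16 tested members, 0 passed edgeR, 8 had an unadjusted p under 0.05, all higher in old, and the list's median lay 1.25 above that of all genes on the log2 scale. Cxcl2, the neutrophil attractant that binds Cxcr2, was at 2843, 6099, 1937 and 3992 CPM in young and 9365, 22595 and 8123 CPM in old neutrophils. All old libraries lay above all young ones, with a log2 difference of 1.94 (SE 0.61, edgeR adjusted p = 0.338). The richest cell held 463 of 4999, 278 of 2552 and 198 of 1310 of the old UMIs. In young replicate 2 the 2 Fabp4-rich cells held 20901 and 21626 of its 80172 neutrophil UMIs, but few of its 489 Cxcl2 UMIs. Without them young replicate 2 lay above old replicates 1 and 3 as given, so the lack of overlap rests on those cells. Il1b, the main interleukin-1 of myeloid cells, was at 8396, 6049, 10726 and 7495 CPM in young and 5223, 9792 and 8185 CPM in old libraries and overlapped fully (adjusted p = 0.975). Cxcl10, an interferon-induced chemokine, was seen in 1 young library (49.9 CPM) and at 41.2, 292 and 570 CPM in the old ones (adjusted p = 0.238). A single cell held 12 of 22, 21 of 33 and 88 of 92 of the Cxcl10 UMIs of the old libraries in turn, and without it they were at 19.0, 109 and 25.5 CPM.

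The summed level of the cytokine list was highest in old replicate 2. There the list summed to 46960 CPM, against 18028 and 24003 CPM in old replicates 1 and 3 and 14676 to 17429 CPM in the young libraries. The sum of old replicate 1 includes its granule-rich cells. Among cells with none of Ngp, Camp and Ltf, old replicate 1 held 243 of Cxcl2 and 124 of Il1b per 10000 UMIs. Old replicate 2 held 230 and 99.9 in such cells. The sum of young replicate 2 includes its 2 Fabp4-rich cells. Without these cells, its Il1b and Cxcl2 together lay above the list sum of old replicate 3. Ccl3, a chemokine for monocytes and T cells, was at 1921 CPM in old replicate 2 and at most 274 CPM in the other 6 libraries, and Ccl4, its close relative, at 3692 CPM against at most 1532 CPM, a level of old replicate 3 where 1 cell held 130 of 247 UMIs. Nfkbia, the NF-kB inhibitor that NF-kB itself induces, was at 4799 CPM in old replicate 2 and 760 to 1757 CPM elsewhere. This is the library with the lowest S100a8. Its plasma cell markers, led by Jchain, summed to 6862 CPM inside the gate against 69.3 to 596 CPM elsewhere. A single cell held 702 of its 711 Jchain UMIs, and without that cell the plasma cell markers summed to 200.1 CPM. Without their richest cell, Ccl3, Ccl4 and Nfkbia were at 1430, 2888 and 4492 CPM in this library.

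**Figure D4:**
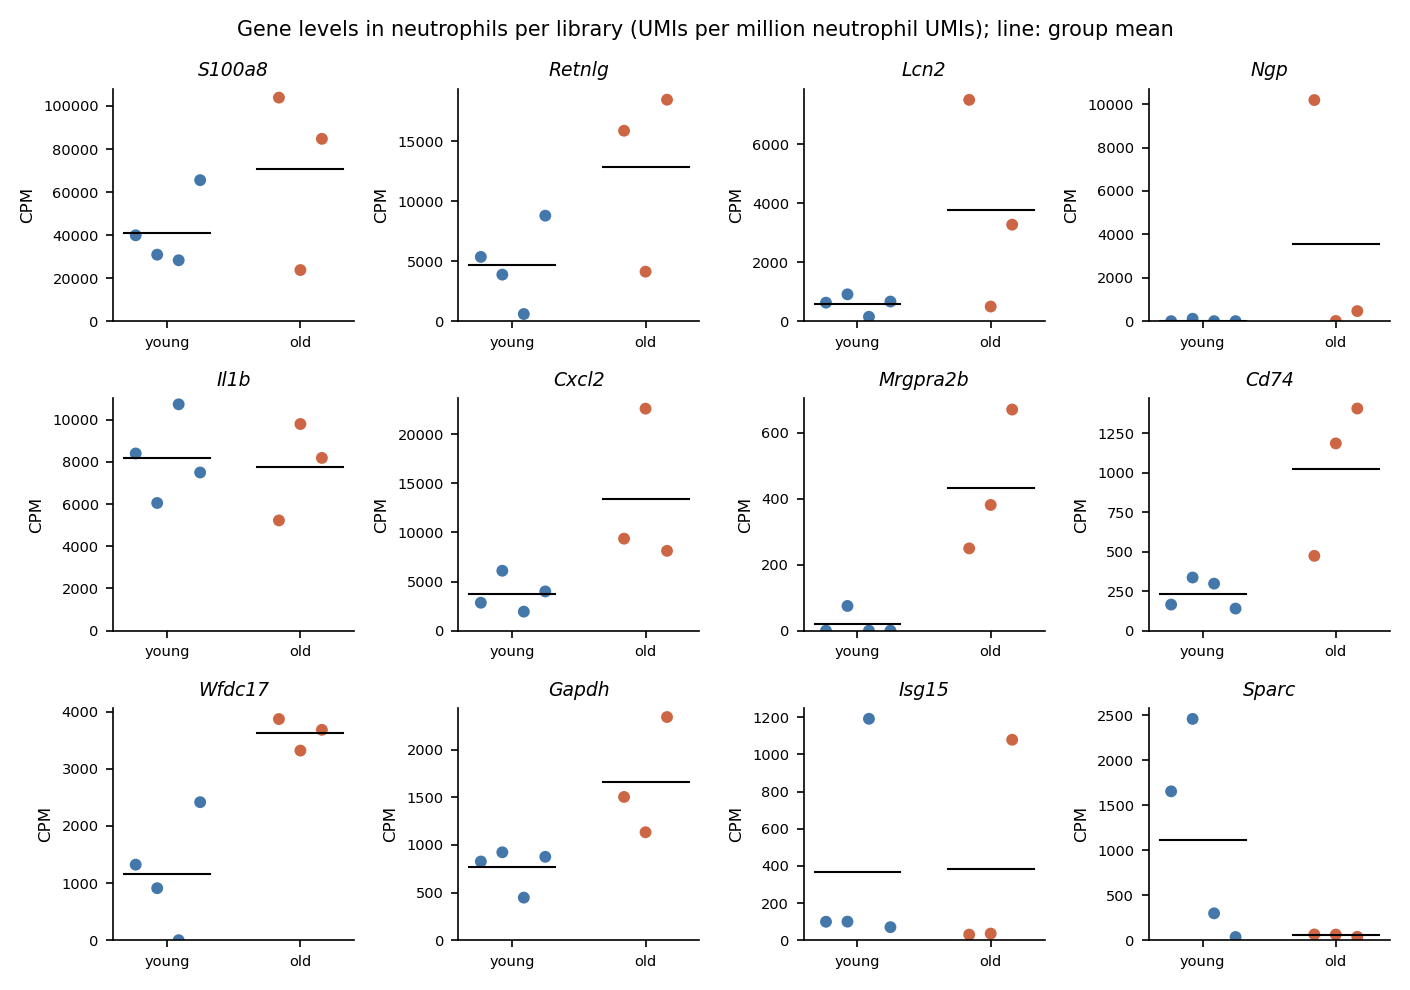
CPM (unscaled) of 12 genes in neutrophils, with 1 point per library (young blue, old orange, replicates from left to right) and a line at the group mean; each y axis starts at 0. Mrgpra2b, Wfdc17 and Gapdh show no overlap between ages. Cd74 shows none only with its 4 richest cells included, and Cxcl2 only with the 2 Fabp4-rich cells of young replicate 2 included. The level of Gapdh without those 2 cells was not taken. S100a8, Retnlg, Lcn2, Il1b, Isg15 and Sparc overlap.

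Of the receptors, Csf2ra alone showed no overlap between ages, and of the sensors none did. Over all genes tested 1.49% lay above all young libraries, and 1 member is too few to be set apart from that share. Of 12 tested chemokine and growth factor receptors, 0 passed edgeR and 0 had an unadjusted p under 0.05. Cxcr4, which holds neutrophils in bone marrow and marks aged cells, was at 99.2, 150, 298 and 210 CPM in young and 84.3, 248 and 484 CPM in old neutrophils. Of 17 pattern recognition and Fc receptors, 0 passed and 5 had an unadjusted p under 0.05, all higher in old; Cd14, the lipopolysaccharide co-receptor, was at 99.2, 960, 1490 and 1821 CPM in young and 1763, 1797 and 3113 CPM in old libraries. Fcer1g, the Fc receptor gamma chain, overlapped (1023 to 2681 CPM and 1622 to 2753 CPM).

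In the interferon list 0 of 23 tested members passed, 8 had an unadjusted p under 0.05 higher in old and 1 lower. Isg15, a ubiquitin-like modifier, was high in 1 library of each age: 1192 CPM in young replicate 3, from 8 UMIs, and 1079 CPM in old replicate 3, against 30.0 to 99.8 CPM in the other 5. Ifitm1 was at 1058, 1409, 149 and 3012 CPM in young and 3408, 2160 and 5122 CPM in old libraries. Its log2 difference was 1.51 (SE 0.61, edgeR adjusted p = 0.587). Ifitm2 overlapped (1509 to 4238 CPM and 2636 to 5153 CPM).

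In the glycolysis and hypoxia list 0 of 20 tested members passed, and 5 had an unadjusted p under 0.05, all higher in old. Gapdh was at 826, 923, 447 and 876 CPM in young and 1504, 1133 and 2344 CPM in old libraries, without overlap (log2 difference 1.42, SE 0.57, edgeR adjusted p = 0.560). In young replicate 2 the Fabp4-rich cell of 21626 UMIs held 25 of the 74 Gapdh UMIs. The level without both Fabp4-rich cells was not taken, so whether the lack of overlap rests on them was not tested. Pgam1, another glycolytic enzyme, did not overlap either (0 to 140 CPM against 161 to 266 CPM). Wfdc17, a secreted protein with an antiprotease domain, was at 1322, 911, 0 and 2416 CPM in young and 3872, 3320 and 3683 CPM in old libraries (log2 difference 1.71, SE 0.56, adjusted p = 0.373).

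Stress and early response genes gave no call. Of 19 immediate early genes 0 passed and 0 had an unadjusted p under 0.05, and Klf2 and Ier2 were the members below every young library in unscaled CPM. Of all genes tested 3.18% lay so. Ier2 was at 596 to 1023 CPM in young and 388 to 487 CPM in old libraries, but its log2 difference was -0.67 (SE 0.51). Junb was at 4203 to 6598 CPM and 2360 to 5436 CPM. Of 10 cytosolic heat shock genes 0 passed. Hspb1, the lowest in p, was at 437 CPM in young replicate 2, 0 in the other young libraries and 8.85 to 43.4 CPM in old ones. Its 35 UMIs in young replicate 2 lay in 2 cells, with 21 and 14. A single cell held 10 of 18 in old replicate 1 and 6 of 7 in old replicate 3.

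The remaining lists gave no call either. Over all genes tested 6.51% had an unadjusted p under 0.05, and 1 or 2 such members are too few to be set apart from that share. The NADPH oxidase list had 7 tested members, of which Cybb was at 33.1, 24.9, 0 and 140 CPM in young and 682, 186 and 68.2 CPM in old libraries (adjusted p = 0.338). Cyba, its partner subunit, overlapped (447 to 1541 CPM and 1214 to 1735 CPM). Of 18 NF-kB and survival genes 2 had an unadjusted p under 0.05, Bcl2a1b, which has near-identical copies, and Nfkbia; Mcl1, which keeps neutrophils alive, was at 1487 to 3327 CPM and 1961 to 3046 CPM. Of 14 MHC class I genes 2 did, H2-Q7 and Tap2, while H2-D1 was at 2681 to 4000 CPM and 2718 to 5023 CPM. Of 11 adhesion genes 1 did, Cd9, a tetraspanin at 525 to 892 CPM in young and 822 to 2125 CPM in old libraries. Of 13 transcription factors 0 did, and Cebpb, a C/EBP factor of activated neutrophils, was at 3074 to 8125 CPM and 3293 to 7354 CPM. Among S100 genes, S100a10 was the lowest in p (70.0 to 496 CPM in young, 12.4 to 95.5 CPM in old).

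Single markers of neutrophil states were sparse. Siglecf, which marks eosinophils and a neutrophil state of tumours, had at most 35.02 CPM in any library. Cd274, which encodes PD-L1, was at 0, 112, 0 and 140 CPM in young and 59.9, 425 and 86.8 CPM in old libraries, and Cdkn1a, a cell cycle inhibitor, at 33.1 to 524 CPM and 167 to 186 CPM; both overlap.

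Whether the age difference of neutrophils departed from that of monocytes, the nearest myeloid class, was tested in 1 model over both classes with the library as a block. Of 8963 genes 4 passed (0.0446%, edgeR). Cd74 differed by 3.36 (SE 0.73, adjusted p = 0.0205), and monocytes held it at 7227 to 14726 CPM in young and 3122 to 15874 CPM in old libraries. Without the 4 Cd74-rich neutrophils it differed by 0.88 (adjusted p = 1.00). Samd9l, an interferon-induced gene, differed by 3.71 (SE 0.83, adjusted p = 0.0265), with 0 to 149 CPM in young and 124 to 230 CPM in old neutrophils against 25.2 to 119 CPM and 18.2 to 113 CPM in monocytes. Spp1, osteopontin, differed by -4.36 (SE 1.01, adjusted p = 0.0331): it was at 0 to 112 CPM in young and 43.1, 328 and 490 CPM in old neutrophils, where 1 cell held 31 of the 37 UMIs of old replicate 2 and 1 held 38 of the 79 of old replicate 3. In monocytes it went from 0 to 3.34 CPM to 78.1, 480 and 441 CPM.

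Chil1, a chitinase-like protein, gave the largest difference, 5.88 (SE 1.01, adjusted p = 4.9e-05). It was at 0 to 198 CPM in young and 262 to 478 CPM in old neutrophils, and in monocytes it was at 72.7 CPM in young replicate 4 and at most 1.70 CPM in the other libraries. Without young replicate 4 the difference was 0.61 (adjusted p = 0.999), so it rests on that library. Cd74 lost its call when young replicate 1 (adjusted p = 0.154), old replicate 1 (0.221) or old replicate 2 (0.147) was omitted, and with RLE size factors (0.0914). Samd9l lost it on omitting young replicates 1 (0.214) or 2 (0.0694) or old replicates 1 (0.221) or 3 (0.129), with RLE size factors (0.0914) and without the 4 Cd74-rich cells (0.0566). Spp1 lost it on omitting young replicates 1 (0.0704) or 2 (0.889) or old replicates 1 (0.101) or 2 (0.196), and without the 4 Cd74-rich cells (0.0990).

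The last comparison asked whether the genes that draw, hold or feed neutrophils changed in the cells around them. The list holds 29 ligands, growth factors and adhesion genes, set in 4 gated classes. In progenitors 1 of 22 tested members passed, where 1.97% of all genes did. It was Pf4, a platelet chemokine that macrophages also make, at 2.18 to 7.42 CPM in young and 21.0 to 26.7 CPM in old progenitors (TMM-scaled; log2 difference 2.01, SE 0.33, edgeR adjusted p = 0.0213). Macrophages held Pf4 at 1312 to 3975 CPM, and their part in the progenitor value was not tested. The call for Pf4 was lost on omitting young replicates 3 (adjusted p = 0.0525) or 4 (0.0615) or old replicates 1 (0.0858), 2 (0.0879) or 3 (0.0529).

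In endothelial cells 0 of 23 members passed edgeR (1.28% of all genes did), 11 had an unadjusted p under 0.05 and DESeq2 called 6, Ccl9 and Pf4 higher and Cxcl12, Sele, Selp and Vcam1 lower. In macrophages 0 of 24 passed (0.00814% of all genes), with 5 at an unadjusted p under 0.05 and 2 called by DESeq2, and in monocytes 0 of 18 (0.0306%), with 4 and 1. The shares of all genes in these classes at an unadjusted p under 0.05 or called by DESeq2 were not taken. The unadjusted and DESeq2 counts therefore stand without a background. Cxcl1, the other main ligand of Cxcr2, was at 52.3, 867, 1238 and 629 CPM in young and 677, 502 and 1563 CPM in old progenitors, and Cxcl12, the ligand of Cxcr4, at 371 to 611 CPM and 475 to 811 CPM. Cxcl2 in macrophages was at 132, 3164, 3405 and 2979 CPM in young and 5078, 3508 and 4769 CPM in old libraries (TMM-scaled, log2 difference 0.88, SE 0.79). The low value is that of young replicate 1, and the other young libraries lie at 2979 CPM or above.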

How the data were processed

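The deposited files hold UMI counts, whole numbers for each gene and cell barcode. The submitters' processing notes name Cell Ranger 4.0.0 and the build mm10 for them. The smallest barcode held 500 UMIs, and all 27998 deposited features were read. The members, gene lists and tests were chosen with earlier results of these data known, among them the higher neutrophil share in old libraries. Reference classes were gated on raw UMIs. Neutrophil levels are unscaled CPM over all neutrophil UMIs of a library, in which 1 UMI of young replicate 3 is 149 CPM; levels in reference classes marked so are TMM-scaled. UMIs and cell numbers were tested with edgeR 4.0.16 (filterByExpr minimum count 3 for neutrophils and 10 for reference classes, TMM, glmQLFit, 2-sided) under R 4.3.3, with DESeq2 1.42.0 as an alternative and a threshold of 0.05. Shares and median UMIs were tested by exact permutation over the 35 splits. Doublets were scored with Scrublet in scanpy 1.11.5 at 0.8% per 1000 barcodes and kept in the main analysis. The tests were checked on simulated data.

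Named genes follow a rule: the gate genes, the 20 genes highest over other classes at 500 CPM or more, the 10 largest changes each way or, if fewer than 5 passed, the 5 lowest p-values, and per list the 2 highest and the lowest p. Fixed state genes, attractants at the highest level or called, and genes departing from monocytes were added, and Gm and Rik models left out. Other members (Ccl3, Ccl4, Klf2, Ier2, Pgam1, Tap2) were named after their values were seen. Itgam, whose symbol has 2 identifiers, was not analysed here. Alternatives were left-out libraries, other gates, cell filters, denominators, depths and scalings. Leaving out cells of at least 10000 UMIs or with Ngp, Camp or Ltf, leaving out the 4 cells of at least 50 Cd74 UMIs or a gene's richest cell, including young replicate 3, and the shares of leukocytes without young replicate 1 were chosen after seeing the data. Leaving out the 2 Fabp4-rich cells of young replicate 2 was chosen then too.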

Additional observations from a re-analysis of the deposited data

Results flagged for a closer look

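Median UMIs per neutrophil stood apart in young replicate 1 (2027 against 3267 to 3487 in the other 3 young libraries). In young replicate 3, with 2 neutrophils, Isg15 was at 1192 CPM against 70.0 to 99.8 CPM in the other young libraries. Mrgpra2b was at 74.8 CPM in young replicate 2 and at 0 in the other 3. These are 3 of 18 values looked at in the 4 young libraries, and chance sets apart about 1 in 20 groups.

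The age difference in neutrophils minus that in monocytes passed the test for Chil1 (5.88 on the log2 scale), Cd74 (3.36), Samd9l (3.71) and Spp1 (-4.36), each with the libraries and cells it rests on given above; for Cd74 these are 4 cells. Outside the gate, 3 further kept cells of old replicate 1 held at least 5 UMIs of Mpo or Elane, and no such cell was found in the other 6 libraries. The deepest of these 3 held 48457 UMIs.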

How the results depend on the processing

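The log2 odds of the neutrophil share, 1.93, kept its direction in all alternatives run and an exact permutation p of 0.0286 in 11 of the 16 that do more than drop 1 library. It was 1.31 without cells holding Ngp, Camp or Ltf, 1.02 over cells with a Ptprc UMI or in the gate (1.66 with young replicate 1 also left out) and 1.54 over pooled neutrophils, monocytes and macrophages (2.16 likewise). Leaving out 1 library gave 1.60 to 2.23, with exact permutation p at the smallest the design allows (0.1 or 0.0667) except without old replicate 1 (0.133, where 0.0667 is possible). The rise in number was 1.54 to 2.15 with 1 library left out and 1.21 without the Ngp, Camp or Ltf cells; 8 of 9 other alternatives kept its call.

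Genes called with age numbered 0 to 28 with 1 library left out; the single call without old replicate 2 was Ngp. DESeq2 called 10, 75 passed with no filter on low counts, 28 with only libraries of at least 10 neutrophils and 12 with the replicate number as a block (11 of them lower in old). What that number stands for is not stated in the labels. Same-numbered deviations correlated at 0.0345 and 0.0614 in neutrophils, which cannot exclude pairing with so few libraries. Under the block 0 attractant genes passed and the rise in number was 1.81. T cells then passed too (1.86, edgeR adjusted p = 0.0255). Genes whose age difference departed from monocytes numbered 1 to 10 with 1 library left out, 0 at a minimum count of 10 and 1, Chil1, without the 4 Cd74-rich cells, a setting in which 0 genes were called with age. Attractant calls numbered 0 to 6 with 1 library left out and 11 with DESeq2. Of 1311 values of single genes under alternatives, 65 had another sign, with no call in either. The causes of these changes were not tested.

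Depth limits these results most in young libraries, with 6713 to 80172 neutrophil UMIs against 112948 to 533794 in old ones.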
